A study of Arabidopsis thaliana with 20 samples.

Results

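The libraries described here are 10 RNA-Seq count sets from Arabidopsis thaliana rosettes, divided by the amount of 1 plastid transcript, psbM. They were grouped by the normalized count of psbM alone: 5 libraries with a count above 20000 (replicates 1, 7, 8, 9 and 10) form the high-psbM set, and 5 with a count below 11000 (replicates 2, 3, 4, 5 and 6) form the low-psbM set. These 10 are the distinct libraries among the 20 deposited samples, because each of the 10 files labelled N-sufficient holds the same 32744 values as the N-limiting file of the same number. All are described under the N-limiting label. Every library of either set came from wild type rosettes at Boyes stage 1.09. The plants grew in soil at 21 °C by day and 19 °C by night, for 8 days before and 19 days on an automated platform (Phenoscope) held at 60% soil water, and received 2.5 mM nitrate. RNA was depleted of ribosomal RNA, and libraries were stranded with single reads. The study describes the libraries as biological replicates of plants under nitrogen deficiency, which matches the label used here, but neither source says whether each was a separate plant or a pool, so p-values measure only the spread between these libraries. Each count set is also deposited under 5 mM nitrate, and the series text gives 5 biological replicates where the labels number 10, so the nitrate supply of the count sets rests on the label and the study's description and cannot be checked from the files. The division is exploratory and lies inside 1 labelled condition, so the differences below are associations with the psbM level and not effects of a treatment.

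psbM encodes a small membrane subunit of photosystem II that lies where the monomers of the dimer meet. The plastid genome encodes the core of the photosystems, while the nucleus encodes the light-harvesting antenna, many small subunits, the sigma factors that direct the bacterial-type plastid RNA polymerase, and the proteins that trim, edit and stabilise plastid transcripts. Nuclear genes (identifiers AT1G to AT5G) were not used to form the sets and were normalized on their own, so they can be tested between the sets. Plastid genes cannot, and are given as values only.

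The psbM gene is a very short plastid gene, and its sequence is shown because its count formed the sets. In RefSeq TAIR10.1 it occupies positions 28707 to 28811 of the minus strand of the plastid genome, a length of 105 nt that is the coding sequence alone, with the start and stop codons in capitals.
psbM: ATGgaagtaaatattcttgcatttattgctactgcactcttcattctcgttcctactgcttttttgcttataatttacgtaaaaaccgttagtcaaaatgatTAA
The normalized psbM count, scaled by size factors from the plastid genes, was 24675 in replicate 1, 23969 in replicate 7, 30200 in replicate 8, 32562 in replicate 9 and 23656 in replicate 10 of the high-psbM set. In the low-psbM set it was 10011 in replicate 2, 9723 in replicate 3, 10019 in replicate 4, 9636 in replicate 5 and 4436 in replicate 6. The low-psbM libraries other than replicate 6 lay between 9636 and 10019, and replicate 6 was well below them. The ratio of the set means was 3.08. The libraries nearest the limits were replicate 10, at 23656 in the high set, and replicate 4, at 10019 in the low set, with no library between them. With size factors from all genes the psbM ratio of set means was 3.03.

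**Figure D1:**
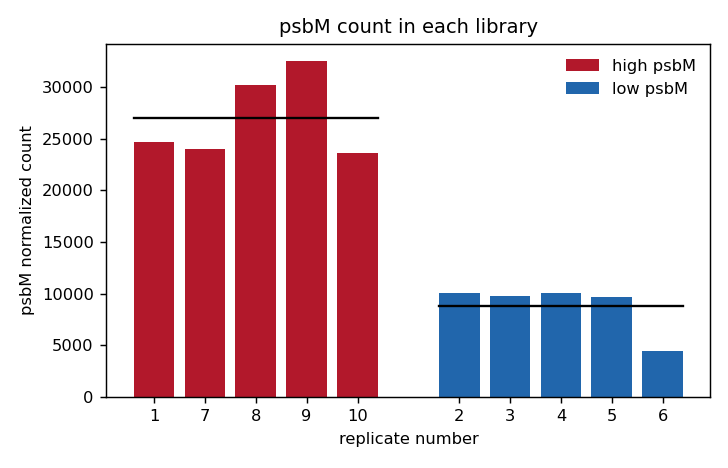
Normalized psbM count (y axis, counts scaled by size factors from plastid genes) of the 5 high-psbM libraries (red, left) and the 5 low-psbM libraries (blue, right), each bar 1 library named by its replicate number on the x axis. Horizontal lines mark the set means; the lowest high-psbM library stood at 23656 and the highest low-psbM library at 10019.

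Other plastid genes did not follow psbM as a body. Among the 128 plastid genes with a mean of at least 100 normalized counts, the median ratio of the high-psbM mean to the low-psbM mean was 1.02, with 7 genes above 1.5 and 2 below the inverse of 1.5. Besides psbM, the largest ratios were 2.97 for ATCG00590 and 2.72 for ATCG00510, and the smallest was 0.297 for ATCG00960 and ATCG01170, which hold equal counts in every library and may share their reads. ATCG00590 had normalized counts of 10619 to 13508 in the high-psbM libraries and 2112 to 4965 in the low-psbM libraries. The plastid share of all counts did not separate the sets, at 63.9% to 68.9% in the high-psbM libraries and 66.5% to 72.3% in the low-psbM libraries.

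The nuclear comparison asked which genes outside the plastid differ between libraries rich and poor in psbM. Of 32548 nuclear genes in the files, 18255 had a mean of at least 10 counts and were tested with edgeR's quasi-likelihood test. At a Benjamini-Hochberg adjusted p of 0.05, 0 genes were called higher (0% of those tested) and 0 lower (0%). The smallest adjusted p was 0.109. At an unadjusted p under 0.05 there were 2056 genes (11.3% of those tested), 951 higher (5.21%) and 1105 lower (6.05%) in the high-psbM set. Normalized counts did not overlap between the sets for 88 genes that were higher (0.482%) and 126 that were lower (0.69%). With DESeq2's Wald test in place of edgeR's, 8 genes were called higher (0.0439%) and 10 lower (0.0548%); these are named below, and those outside the naming rule were chosen after their values were seen. The differences were small for most genes: the median standard error of the log2 fold change was 0.13, and for 93.9% of the genes the 95% interval lay within a 2-fold change in either direction. No gene named below passed edgeR's adjusted threshold in this comparison.

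Depth and the main axis of nuclear variation moved in part with the sets. Total counts were 42052474 to 60323158 in the high-psbM libraries and 41423334 to 44893366 in the low-psbM libraries. Nuclear genes held 13792096 to 19583758 counts in the high-psbM libraries and 11000694 to 14278969 in the low-psbM libraries. Principal component 1 of the nuclear genes carried 39.3% of their variance. Its scores in the high-psbM set were -34.4 for replicate 1, 19.5 for replicate 7, -25.6 for replicate 8, -27.3 for replicate 9 and 0.51 for replicate 10. In the low-psbM set they were 21.9 for replicate 2, 32.7 for replicate 3, -25.6 for replicate 4, 15.3 for replicate 5 and 23.1 for replicate 6. The sets overlapped on this axis, with replicate 7 among the low-psbM libraries and replicate 4 among the high-psbM libraries. Without replicate 4 the genes at an unadjusted p under 0.05 numbered 4332, and without replicate 7 they numbered 3898, with 0 called in either case. Without replicate 4 the smallest adjusted p was 0.0836, shared by a block of genes such that 1302 had an adjusted p of at most 0.1.

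**Figure D2:**
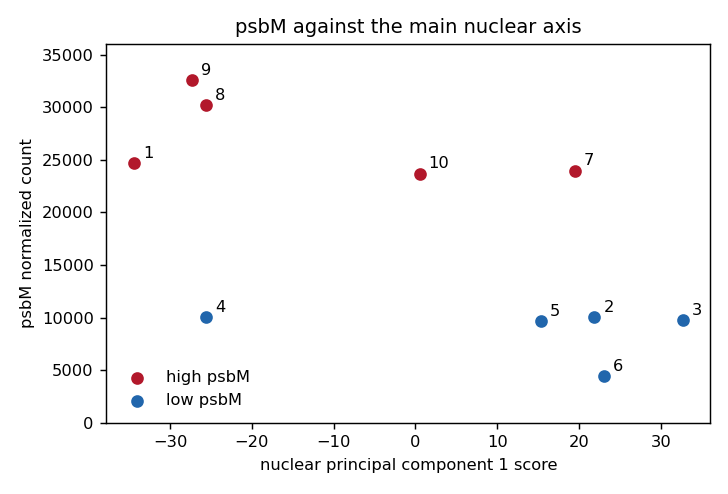
Score on principal component 1 of the nuclear genes (x axis) against the normalized psbM count (y axis) for each library, numbered by replicate, with high-psbM libraries in red and low-psbM libraries in blue. Replicate 7 of the high-psbM set (19.5) lies among most low-psbM libraries on the x axis, and replicate 4 of the low-psbM set (-25.6) among most high-psbM libraries.

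The 5 genes with the smallest p among those higher in the high-psbM libraries were all shorter than psbM itself. They are a tRNA gene and 4 small nucleolar RNA (snoRNA) genes, a class that guides chemical modification of ribosomal and other RNAs, and all were chosen after their values were seen. Their sequences are shown for their shortness, though most tested nuclear genes of up to 120 nt overlapped between the sets, as given below. In the tRNA the capitals mark GGTTCGA, part of the conserved T arm. In the snoRNAs they mark the letters TGATGA and a later CTGA, the cores of boxes C and D that define their class.
AT2G07793: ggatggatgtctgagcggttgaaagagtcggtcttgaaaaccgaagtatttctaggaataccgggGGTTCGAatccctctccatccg
AT5G06565: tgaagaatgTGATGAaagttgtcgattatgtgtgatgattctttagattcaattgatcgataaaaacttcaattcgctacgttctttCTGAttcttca
AT5G44286: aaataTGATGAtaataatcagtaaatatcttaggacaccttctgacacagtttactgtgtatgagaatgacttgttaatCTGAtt
AT4G06245: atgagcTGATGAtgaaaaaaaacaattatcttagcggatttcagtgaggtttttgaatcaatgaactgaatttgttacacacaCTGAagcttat
AT4G06315: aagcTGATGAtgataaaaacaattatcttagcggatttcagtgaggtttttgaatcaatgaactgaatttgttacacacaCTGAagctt
These are the plus-strand genes AT2G07793 (chr2:3369354-3369440, 87 nt), AT5G06565 (chr5:17840026-17840123, 98 nt), AT5G44286 (chr5:17840220-17840304, 85 nt) and AT4G06245 (chr4:8459900-8459993, 94 nt), and the minus-strand gene AT4G06315 (chr4:8712878-8712966, 89 nt), in RefSeq TAIR10.1. AT5G06565 and AT5G44286 lie 96 bases apart on the same strand. AT4G06245 and AT4G06315 share an unbroken run of 75 bases, so reads from these genes may be shared or lost between them, and AT4G06245 also overlaps annotated genes on either strand. On the gene strand, TGATGA followed by CTGA occurred in 125 of the 202 snoRNA genes of up to 120 nt in the annotation (61.9%) and in 3 of 847 other genes of that length (0.354%), and on the opposite strand in 1 gene of either group. GGTTCGA occurred in 379 of 625 tRNA genes (60.6%) on the gene strand and in 46 on the other.

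AT2G07793 encodes a serine tRNA and had the smallest p of all nuclear genes. Its normalized counts were 164 in replicate 1, 280 in replicate 7, 242 in replicate 8, 279 in replicate 9 and 271 in replicate 10 of the high-psbM set. The low-psbM libraries had 111, 138, 97.2, 115 and 76.0 in replicates 2 to 6. The sets did not overlap, and replicate 1 was the lowest of the high set. The log2 fold change was 1.21 ± 0.17 (SE; 95% interval 0.84 to 1.57; edgeR adjusted p = 0.109). Without each replicate in turn it was 1.11 to 1.33. The edgeR adjusted p of these fits was lowest without replicate 1, at 0.00663, and highest without replicate 8, at 0.364. All 87 bases of the gene match the mitochondrial genome, at 100% identity, so its reads cannot be told apart from those of the mitochondrial copy.

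AT5G06565 had low counts with a large difference, and passed the minimum mean of 10 counts only through the high-psbM libraries. The high-psbM libraries had 24.5, 20.0, 23.0, 36.0 and 13.5 normalized counts in replicates 1, 7, 8, 9 and 10, and the low-psbM libraries had 5.48, 5.62, 5.77, 6.74 and 4.90 in replicates 2 to 6. Every low-psbM library lay below every high-psbM library, and the low-psbM values were close to each other. The log2 fold change was 1.99 ± 0.31 (SE, edgeR adjusted p = 0.110). Its neighbour AT5G44286 had 29.8, 26.7, 37.0, 44.7 and 25.5 normalized counts in the high-psbM libraries, in the same order, and 15.3, 12.7, 10.6, 13.5 and 6.13 in the low-psbM libraries. Replicate 6 was lowest in AT5G44286, as it was in psbM, and replicate 9 was highest in both. AT5G06565 had the same extremes. The other genes picked with them did not: AT4G06245 and AT4G06315 were lowest in replicate 4, and AT2G07793 and AT4G06315 were highest in replicate 7. The log2 fold change of AT5G44286 was 1.47 ± 0.26 (SE, edgeR adjusted p = 0.172).

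The near-copies AT4G06245 and AT4G06315 had the same separation at low counts. AT4G06245, which also passed the minimum of 10 counts only through the high-psbM libraries, had 15.8, 18.1, 14.0, 19.4 and 12.04 normalized counts in the high-psbM libraries and 4.38, 4.22, 1.92, 5.62 and 4.90 in the low-psbM libraries. AT4G06315 had 27.2, 32.4, 30.0, 28.2 and 24.1 in the high-psbM libraries and 14.2, 12.7, 9.62, 14.6 and 12.3 in the low-psbM libraries. Neither gene overlapped between the sets, with log2 fold changes of 1.90 ± 0.31 and 1.15 ± 0.20 (SE, edgeR adjusted p = 0.124 and 0.172). DESeq2 called all 5 of these genes. The microRNA precursor gene MIR5026 was also called higher by DESeq2, at 35.01 to 52.4 normalized counts in the high-psbM libraries and 6.13 to 27.9 in the low-psbM libraries. It is 193 nt long and overlaps another gene on the same strand.

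**Figure D3:**
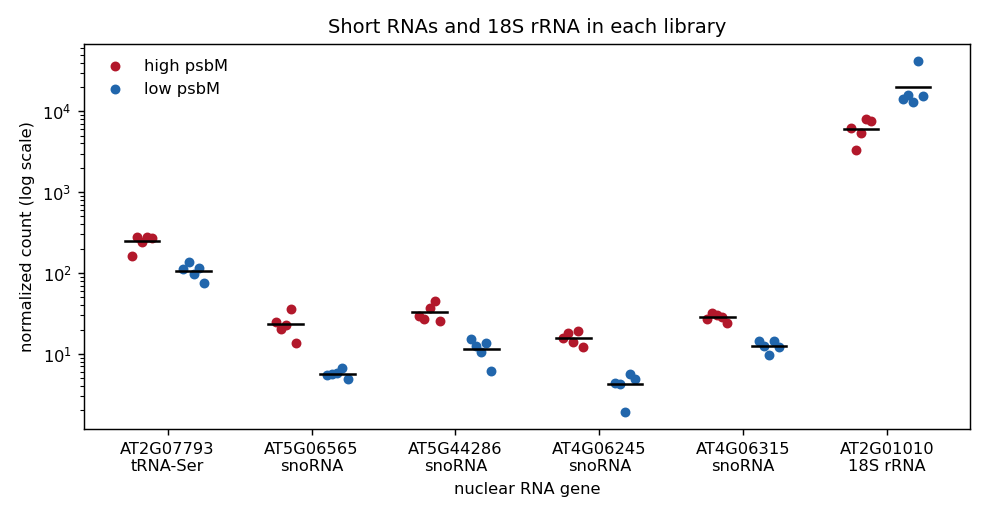
Normalized counts (y axis, log scale) of 5 short RNA genes and 1 18S ribosomal RNA gene in each high-psbM library (red, left of each gene) and each low-psbM library (blue, right), with horizontal lines at the set means. Each of the 5 short genes was higher in every high-psbM library than in any low-psbM library, and 18S ribosomal RNA was lower.

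Short genes as a class did not all follow. Of the 159 tested nuclear genes of up to 120 nt, 94 were higher in the high-psbM set, 21 of them at an unadjusted p under 0.05, beside 5 lower at that p. In 10 of the 159 the high-psbM libraries were all above the low-psbM libraries, and in 0 all below. Over all tested genes, 0.482% were higher and 0.69% lower without overlap. At an unadjusted p under 0.05, 5.21% of all tested genes were higher and 6.05% lower. However, 8 of the 159 reached a mean of 10 normalized counts in the high-psbM set alone and 2 in the low-psbM set alone, so their passing the filter was tied to the difference. Among the other 149, a subset chosen after the data were seen, 7 were without overlap and higher and 0 lower, and 17 were higher and 5 lower at an unadjusted p under 0.05. The median log2 fold change was 0.07 for the 159 and 0.06 for the 149, beside 0.0044 over all tested genes. Among the 123 snoRNA genes of this length, 80 were higher, 19 of them at an unadjusted p under 0.05 with 1 lower, and the median log2 fold change was 0.14. For the 116 that reached a mean of 10 normalized counts in both sets, 15 were higher and 1 lower at that p, and the median was 0.13. Of all 123, the median was 0.15 for the 80 with both box motifs and 0.13 for the 43 without. The median deviation of these snoRNAs from their own mean over the libraries, in log2 units, was 0.11, -0.05, 0.33, 0.47 and -0.38 in the high-psbM replicates 1, 7, 8, 9 and 10, and -0.18, 0.13, 0.05, -0.23 and -0.12 in the low-psbM replicates 2 to 6. The sets overlapped in this class value, with the lowest and the highest library both in the high-psbM set. The 34 tested small nuclear RNA (snRNA) genes, 42 to 912 nt long, had a median log2 fold change of 0.31, with 26 higher. At an unadjusted p under 0.05, 3 of them were higher and 4 lower, and 0 were without overlap. Of the 5 tested genes of the U6 spliceosomal RNA, U6-1 and U6.3 had log2 fold changes of -0.71 and U6.4 of -0.70 (edgeR adjusted p = 0.441 each). These had nearly equal counts in every library, and each overlapped between the sets. The 2 others, U6.5 and U6.6, which averaged 10.4 and 10.3 counts, had log2 fold changes of 0.32 and 0.06. tRNA genes had a median log2 fold change of -0.11, with 5 of 19 higher. Of the 159 short genes, 18 resemble a stretch of an organelle genome. Without these the median was 0.13, with 90 of 141 genes higher.

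Across the whole range of lengths the gradient ran from shorter to longer genes. In 5 classes of nearly equal size by summed exon length, the median log2 fold change was -0.08 for genes of up to 1165 nt, -0.06 to 1600 nt, -0.01 to 2008 nt, 0.04 to 2621 nt and 0.14 for longer genes. In the longest class 78.3% of the genes were higher in the high-psbM set, and in the shortest class 33.3%. The short snoRNAs, a small part of the shortest class, had a positive median where that class had a negative one. The median deviation of the longest class was -0.13 to 0.21 in the high-psbM libraries and -0.26 to 0.14 in the low-psbM libraries. These ranges overlapped, with replicate 7 lowest in the high-psbM set and replicate 4 highest in the low-psbM set. Removing the length trend from the fit left 0 genes called and 2001 at an unadjusted p under 0.05.

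**Figure D4:**
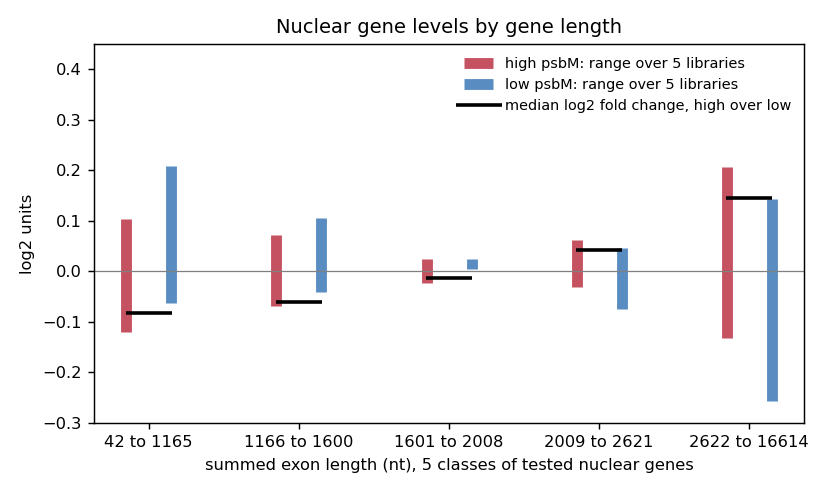
Nuclear genes in 5 classes of summed exon length (x axis, nt), with the range over 5 high-psbM libraries (red, left) and 5 low-psbM libraries (blue, right) of the median deviation of the genes from their mean, and the median log2 fold change of high over low psbM (black lines), all on the y axis in log2 units. The median fold change climbs from -0.08 to 0.14 with length, and the ranges of the sets overlap in every class.

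The nuclear 18S ribosomal RNA genes, which encode the RNA of the small ribosomal subunit, were lower in the high-psbM set. The libraries were made after ribosomal RNA depletion, so these counts are what remained after that step. AT2G01010 (chromosome 2, 3706 to 5513) had 6146, 3335, 5341, 7913 and 7541 normalized counts in the high-psbM replicates 1, 7, 8, 9 and 10, and 14106, 15729, 13118, 41188 and 15538 in the low-psbM replicates 2 to 6. The sets did not overlap, and replicate 5 stood far above the other low-psbM libraries. Its log2 fold change was -1.72 ± 0.32 (SE, edgeR adjusted p = 0.229). Without replicate 5 it was -1.27 ± 0.21 (SE). AT3G41768, its copy on chromosome 3, shares a run of 837 of its 1808 bases and had a log2 fold change of -1.71 ± 0.32 (SE), so the pair counts as 1 measurement. Nuclear ribosomal RNA genes held 0.0142% to 0.0361% of all counts in the high-psbM libraries and 0.0546% to 0.169% in the low-psbM libraries. The plastid genes ATCG00960 and ATCG01170 had the same shape, at 45.9 to 128 normalized counts in the high-psbM libraries and 185 to 709 in the low-psbM libraries, with replicate 5 again highest. The part that ribosomal RNA depletion has in the psbM difference was not tested.

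Among protein-coding genes with a RefSeq symbol, those named by rule were the 6 with the smallest p in each direction whose sets did not overlap. CSLG1 (AT4G24010), a cellulose synthase-like protein, had 315, 252, 302, 303 and 295 normalized counts in the high-psbM replicates 1, 7, 8, 9 and 10, and 198, 204, 235, 224 and 213 in the low-psbM replicates 2 to 6. The gap between the sets was narrow, from 235 in replicate 4 to 252 in replicate 7. Its log2 fold change was 0.45 ± 0.09 (SE, edgeR adjusted p = 0.352), and DESeq2 called it. PIT1 (AT4G02075), a RING-type zinc finger protein, had 88.5 to 117 normalized counts in the high-psbM libraries and 57.6 to 78.9 in the low-psbM libraries. ICU2 (AT5G67100), the catalytic subunit of DNA polymerase alpha, had 167 to 229 in the high-psbM libraries and 118 to 152 in the low-psbM libraries. BNQ2 (AT5G15160), a helix-loop-helix protein, had 142 to 214 in the high-psbM libraries and 99.7 to 132 in the low-psbM libraries. These 3 genes had log2 fold changes of 0.57 ± 0.13, 0.45 ± 0.11 and 0.53 ± 0.13 (SE). MBD11 (AT3G15790), with a methyl-CpG-binding domain, and FBH3 (AT1G51140), a helix-loop-helix activator of the flowering gene CONSTANS, had log2 fold changes of 0.48 ± 0.12 and 0.36 ± 0.09 (SE). The edgeR adjusted p was 0.441 for each of these 5 genes. CSLG1, ICU2 and, among the lower genes below, EBF2, DiT1 and AGP26 overlap genes on the opposite strand and DND1 a gene on the same strand, and the strand setting of the counting is not given in the sources used here. DESeq2 also called AT1G51440, a predicted alpha/beta-hydrolase, which had 81.1 to 105 normalized counts in the high-psbM libraries and 26.7 to 66.3 in the low-psbM libraries.

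In the other direction the smallest p belonged to FLA9 (AT1G03870), a fasciclin-like arabinogalactan protein of the cell wall. It had 193, 245, 202, 272 and 223 normalized counts in the high-psbM replicates 1, 7, 8, 9 and 10, and 357, 418, 358, 324 and 391 in the low-psbM replicates 2 to 6. All high-psbM libraries lay below all low-psbM libraries. The log2 fold change was -0.70 ± 0.11 (SE; 95% interval -0.94 to -0.47; edgeR adjusted p = 0.110), and DESeq2 called it with an adjusted p of 5.22e-05. A further arabinogalactan protein, AGP26 (AT2G47930), had 40.3 to 66.8 normalized counts in the high-psbM libraries and 76.0 to 139 in the low-psbM libraries, with a log2 fold change of -0.79 ± 0.20 (SE). AT2G10940, annotated as a lipid-transfer family protein and chosen after its values were seen, had 2799, 3534, 2996, 3258 and 2804 normalized counts in the high-psbM libraries and 4809, 5211, 4064, 4346 and 5998 in the low-psbM libraries. It had the second smallest p of the lower genes, with a log2 fold change of -0.67 ± 0.12 (SE, edgeR adjusted p = 0.172), and DESeq2 called it.

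DiT1 (AT5G12860), which exchanges 2-oxoglutarate for malate across the envelope and so supplies carbon skeletons for ammonium assimilation, was also among the lower genes named by rule. It had 1407, 1301, 1195, 1251 and 1147 normalized counts in the high-psbM replicates 1, 7, 8, 9 and 10. In the low-psbM replicates 2 to 6 it had 1698, 1766, 1605, 1484 and 1942. The sets came close, at 1407 in replicate 1 and 1484 in replicate 5, without overlap. Its log2 fold change was -0.43 ± 0.09 (SE, edgeR adjusted p = 0.441), and DESeq2 called it. DIT2.1 (AT5G64290), which exports glutamate in the same shuttle and was added after its values were seen, had 404 to 506 normalized counts in the high-psbM libraries and 510.0 to 600.3 in the low-psbM libraries, a log2 fold change of -0.34 ± 0.09 (SE).

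The other lower genes of the rule act in unrelated processes. ERD5 (AT3G30775), the proline dehydrogenase that degrades proline in mitochondria, had 62.2 to 85.9 normalized counts in the high-psbM libraries and 88.3 to 122 in the low-psbM libraries. EBF2 (AT5G25350), an F-box protein that targets the ethylene regulator EIN3 for degradation, had 314 to 386 in the high-psbM libraries and 393 to 727 in the low-psbM libraries. DND1 (AT5G15410), a cyclic nucleotide-gated channel of defence signalling, had 610 to 683 in the high-psbM libraries and 725 to 964 in the low-psbM libraries. Their log2 fold changes were -0.60 ± 0.13, -0.62 ± 0.14 and -0.40 ± 0.09 (SE, edgeR adjusted p = 0.423, 0.441 and 0.441). DESeq2 called EBF2 and DND1. It also called AT1G23300, a transporter of the MATE family, AT2G30600, a BTB/POZ domain protein, AT1G55673, AT4G20362 and AT1G07017, all lower. AT1G23300, AT2G30600, AT1G55673 and AT4G20362 overlap other genes on the opposite strand. AT1G07017 had 98.9 normalized counts in replicate 5 beside 13.5 to 49.1 in the other low-psbM libraries and 9.54 to 21.9 in the high-psbM libraries.

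The nuclear side of plastid gene expression was examined with lists of known genes. Over all tested genes, 5.21% were higher and 6.05% lower at an unadjusted p under 0.05. These shares stand beside the counts of each list below. Of 20 genes of the plastid transcription machinery, 0 were called, 1 was higher and 2 lower at an unadjusted p under 0.05, and the median log2 fold change was 0.05. SIG5 (AT5G24120), the light- and stress-responsive sigma factor, had 568, 665, 570, 561 and 864 normalized counts in the high-psbM replicates 1, 7, 8, 9 and 10, and 488, 433, 531, 550 and 461 in the low-psbM replicates 2 to 6. The sets did not overlap, though 561 and 550 lie close together. Its log2 fold change was 0.39 ± 0.13 (SE, edgeR adjusted p = 0.441). TRXz, a thioredoxin bound to the plastid polymerase, had a log2 fold change of -0.40 ± 0.16 and FSD3, an iron superoxide dismutase of the same complex, -0.35 ± 0.16 (SE). Among 19 tested genes of plastid RNA processing and stability, 0 were called, 0 were higher and 5 lower at an unadjusted p under 0.05, and the median log2 fold change was -0.04. The 5 are the RNA-binding proteins CP29A, CP29B and CP31A, the endonuclease-related protein CSP41A, and the pentatricopeptide repeat protein SVR7. CP29A had 2465 to 3772 normalized counts in the high-psbM libraries and 3051 to 5244 in the low-psbM libraries. It thus overlapped between the sets, at a log2 fold change of -0.49 ± 0.15 (SE, edgeR adjusted p = 0.441).

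Nuclear genes of the photosystems leaned lower in the high-psbM set. All 20 tested antenna genes had negative log2 fold changes, 3 of them at an unadjusted p under 0.05 and 0 called, with a median of -0.25. Of 23 nuclear photosystem subunits, 22 had negative log2 fold changes, 5 at an unadjusted p under 0.05 and 0 called, with a median of -0.23. Over all tested genes, 6.05% were lower at that p. By direction alone, 33.3% of all tested genes of up to 1165 nt and 36.5% of those of 1166 to 1600 nt were higher. LHCB4.1, a minor antenna protein of photosystem II, had 38128, 51474, 43376, 44744 and 48089 normalized counts in the high-psbM replicates 1, 7, 8, 9 and 10, and 51497, 67829, 45239, 58062 and 62599 in the low-psbM replicates 2 to 6. Replicate 4 of the low-psbM set lay among the high-psbM libraries. LHCB4.2 had a log2 fold change of -0.35 ± 0.14 (SE, edgeR adjusted p = 0.441). PSAG, a photosystem I subunit, was the subunit whose sets did not overlap, at 12810 to 15677 normalized counts in the high-psbM libraries and 15760 to 19104 in the low-psbM libraries, and PSAD1 had a log2 fold change of -0.32 ± 0.13 (SE). The PSAG locus overlaps AT1G55673 on the opposite strand. These genes are short, with median exon lengths of 1304 nt for the antenna and 997 nt for the subunits beside 1795 nt over all tested genes. With the length trend removed from the fit the medians were -0.18 for the antenna and -0.14 for the subunits. With the plastid share of counts as a covariate they were closer to zero, at -0.07 for the antenna and -0.07 for the subunits. The members' median deviations overlapped between the sets, at -0.42 to 0.18 in the high-psbM libraries and -0.16 to 0.36 in the low-psbM libraries for the antenna.

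Flavonoid and anthocyanin genes had the highest median of the 21 lists, 0.30, with 13 of 14 tested genes higher in the high-psbM set. At an unadjusted p under 0.05 there were 7 higher and 0 lower, and 0 were called. Over all tested genes, 5.21% were higher and 6.05% lower at that p. DFR, the dihydroflavonol reductase of the anthocyanin branch, had 4209, 4216, 6444, 4791 and 4074 normalized counts in the high-psbM replicates 1, 7, 8, 9 and 10, and 4195, 3150, 4373, 3381 and 3015 in the low-psbM replicates 2 to 6. Replicates 2 and 4 overlapped the high-psbM set, and replicate 8 was highest. Its log2 fold change was 0.39 ± 0.15 (SE, edgeR adjusted p = 0.441). DFR is outside the naming rule, as is TT4 below, and both were chosen after their values were seen. The regulator MYB75 (PAP1) and the flavanone hydroxylase F3H had log2 fold changes of 0.33 ± 0.12 and 0.30 ± 0.11 (SE). The others at that p are UGT75C1, LDOX, TT5 and TT19, which glycosylate, oxidise, isomerise and transport flavonoids. TT4, the chalcone synthase that opens the pathway, varied more, from 5277 to 13854 normalized counts in the high-psbM libraries and from 5888 to 10173 in the low-psbM libraries. The median deviation of the list was -0.02 to 0.39 in the high-psbM libraries and -0.29 to 0.03 in the low-psbM libraries.

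**Figure D5:**
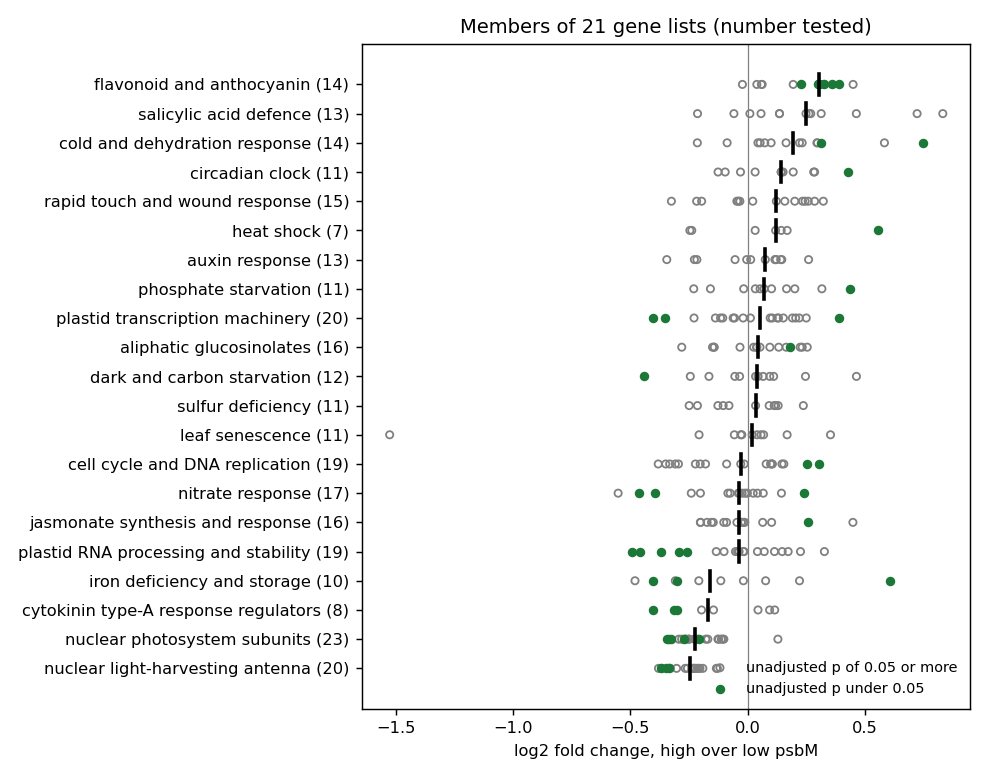
Log2 fold change of high over low psbM (x axis) for the tested members of 21 gene lists (y axis, number tested in parentheses), each point a gene, filled green at an unadjusted p under 0.05, with black lines at the medians. Flavonoid and anthocyanin genes have the highest median (0.30) and the light-harvesting antenna the lowest (-0.25), and no member was called.

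Genes that respond to nitrogen did not move together. Of 17 tested nitrate response genes, 0 were called, 1 was higher and 2 lower at an unadjusted p under 0.05, and the median log2 fold change was -0.04. HHO2 (AT1G68670), a repressor of nitrate and phosphate responses, had 611, 578, 596, 551 and 528 normalized counts in the high-psbM replicates 1, 7, 8, 9 and 10, and 500, 475, 479, 453 and 519 in the low-psbM replicates 2 to 6, without overlap. NRT1.1 (AT1G12110), the dual-affinity nitrate transporter and sensor, had 1360 to 1833 in the high-psbM libraries and 1650 to 2514 in the low-psbM libraries, which overlap. Their log2 fold changes were 0.24 ± 0.08 and -0.39 ± 0.12 (SE, edgeR adjusted p = 0.441 each). NRT2.1, the high-affinity transporter, had 9.63 to 26.9 in the high-psbM libraries and 16.4 to 42.9 in the low-psbM libraries, with a log2 fold change of -0.55 ± 0.33 (SE). LBD39, a repressor of nitrogen genes, had a log2 fold change of -0.46 ± 0.18 (SE).

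The remaining lists had medians between -0.17 and 0.25 and 0 genes called. At an unadjusted p under 0.05, 5.21% of all tested genes were higher and 6.05% lower. The members named are among the 2 with the smallest p in each list, apart from FIT. None is named for the touch, sulfur and auxin lists. In some lists only 1 of the 2 is described below. The other was PRR7 (clock) at a log2 fold change of 0.19, LOX2 (jasmonate) at 0.45, MGD2 (phosphate) at -0.23 and TPS11 (carbon) at 0.25. It was CYP79F1 (glucosinolate) at 0.25, HSP70 (heat shock) at 0.17 and SAG101 (senescence) at 0.35. Among list members, overlaps were searched only for the 2 with the smallest p in each list. Of those named here and above, PSAG, LHCB4.2, F3H and DIN10 overlap a gene on the opposite strand, and TRXz and FER4 a gene on the same strand. The other list members named were not searched. Type-A cytokinin response regulators had 0 higher and 3 lower of 8 at an unadjusted p under 0.05, among them ARR15 at a log2 fold change of -0.40 ± 0.14 and ARR4 at -0.31 ± 0.12 (SE). Iron genes had 1 higher and 2 lower of 10, namely the deficiency regulator FIT at 0.61 ± 0.25, and the ferritins FER3 at -0.40 ± 0.12 and FER4 at -0.30 ± 0.11 (SE). Cold and dehydration genes had 2 higher and 0 lower of 14, the dehydrin ERD10 at 0.31 ± 0.11 and RD29A at 0.75 ± 0.28 (SE). RD29A ranged from 571 to 1591 normalized counts in the high-psbM libraries and from 433 to 1102 in the low-psbM libraries. Of 11 clock genes, 1 was higher at that p, CCA1 at 0.43 ± 0.19 (SE). Salicylic acid defence genes had 0 of 13 at that p and a median of 0.25, with WRKY38 at 0.83 ± 0.39 and EDS1 at 0.26 ± 0.14 (SE). DNA replication genes had 2 higher of 19, the helicase subunits MCM2 at 0.30 ± 0.13 and MCM6 at 0.25 ± 0.11 (SE). Jasmonate synthesis and response had 1 higher and 0 lower of 16 genes at that p and a median of -0.04, with OPR3, which makes the jasmonate precursor, at 0.26 ± 0.12 (SE). Phosphate starvation genes had 1 higher and 0 lower of 11 and a median of 0.07, with SQD2, a sulfolipid synthase, at 0.44 ± 0.16 (SE). Carbon starvation genes had 0 higher and 1 lower of 12 and a median of 0.04, with DIN10 at -0.44 ± 0.16 (SE) and no overlap between the sets. Aliphatic glucosinolate genes had 1 higher and 0 lower of 16 and a median of 0.05, with MAM1, which elongates methionine side chains, at 0.18 ± 0.08 (SE) and no overlap. Heat shock genes had 1 higher and 0 lower of 7 and a median of 0.12, with HSP81-1, a cytosolic chaperone, at 0.56 ± 0.24 (SE). Touch and wound genes (15 tested), sulfur deficiency genes (11), auxin response genes (13) and senescence genes (11) had 0 genes at that p in either direction, with medians of 0.12, 0.03, 0.08 and 0.02. The widest difference among these was SAG13 of the senescence list, at -1.53 ± 0.85 (SE), where replicate 3 had 297 normalized counts beside 4.997 to 49.9 in the high-psbM libraries and 9.62 to 38.2 in the other low-psbM libraries, and without replicate 3 its log2 fold change was 0.32. Over all lists, 42 of 300 distinct tested genes (14%) had an unadjusted p under 0.05, beside 11.3% of all tested genes.

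Tissue markers were those of rosette leaves in either set. The summed level of 6 leaf markers was 52145 to 67512 CPM (counts scaled to the nuclear total of each library) in the high-psbM libraries and 57717 to 70731 CPM in the low-psbM libraries. For 9 root markers the sum was 40.7 to 60.5 CPM in the high-psbM libraries and 32.7 to 65.4 CPM in the low-psbM libraries, and the root hair markers EXPA7 and EXPA18 had no counts. For 7 floral organ markers it was 0.407 to 0.596 CPM in the high-psbM libraries and 0.231 to 0.420 CPM in the low-psbM libraries. Of 4 shoot meristem markers the sum was 0.409 to 3.12 CPM in the high-psbM libraries and 1.05 to 2.90 CPM in the low-psbM libraries, and WUS had no counts. Guard cell markers summed to 22.2 to 29.7 CPM in the high-psbM libraries and 20.2 to 25.96 CPM in the low-psbM libraries, and phloem companion cell markers to 273 to 394 CPM in the high-psbM libraries and 281 to 343 CPM in the low-psbM libraries. The sets overlapped for every marker list. In whole rosettes, fewer cells of a type and less RNA per cell cannot be told apart.

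Within each set, psbM still varied, and those differences were not used to form the sets. With the set kept as a term, edgeR tested the slope of each nuclear gene on log2 psbM. It called 0 genes, with a smallest adjusted p of 0.930. Of the 18255 genes tested, 842 had an unadjusted p under 0.05 for the slope, beside 2056 in the comparison of the sets. The slopes given are those of some genes named above, picked from that comparison. AT5G44286 had a slope of 1.14 ± 0.35 log2 units per doubling of psbM (SE, edgeR adjusted p = 0.930), and AT5G06565 had 0.83 ± 0.51. AT2G07793 had 0.45 ± 0.24, the 18S gene AT2G01010 0.38 ± 0.46, FLA9 -0.03 ± 0.16, AT2G10940 -0.27 ± 0.15 and CSLG1 0.04 ± 0.13 (SE). Replicate 6 had a psbM count of 4436 beside 9636 to 10019 in the other low-psbM libraries, so within that set the slopes rest mostly on this 1 library. How the slopes change without replicate 6 was not tested.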

How the data were processed

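Ribosomal RNA-depleted stranded libraries of rosettes were aligned to TAIR10 with STAR and counted per gene by the authors (featureCounts is named in the processing notes), who deposited raw read counts, 1 column per sample, without normalization. The annotation release and the treatment of reads that align to several places are not given in the sources used here. The N-sufficient files repeat the N-limiting counts and were left out.

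psbM (ATCG00220) was scaled by median-of-ratios size factors over 133 plastid genes. Nuclear genes that averaged 10 counts or more were fitted with edgeR 4.0.16 (TMM factors from nuclear genes, quasi-likelihood test, Benjamini-Hochberg adjustment, called at 0.05) in R 4.3.3. Fold changes are high over low psbM. Normalized counts are counts divided by the effective nuclear library size and multiplied by its mean. DESeq2 1.42.0, other filters, scalings and covariates, and each replicate left out were the alternatives. Symbols, lengths and sequences come from RefSeq TAIR10.1, whose table paired none of the plastid identifiers with names. Of 334 listed symbols, 292 were matched by symbol or synonym, 41 by a locus given by hand and 1 was not resolved. Organelle copies were searched with blastn 2.17.0 (alignments of at most 1e-05 in expected value).

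Named genes were called genes without overlap between the sets, with a symbol and a mean of at least 50 counts, up to 12 in each direction. With fewer called, the rule takes the smallest unadjusted p up to 6 in each direction, and in each list the 2 smallest. Further list members named, among them DFR, TT4, FSD3, NRT2.1, LBD39 and FIT, are outside the rule and were chosen after their values were seen. Promoter motifs were planned for called genes and were not run, since edgeR called 0. The sets, members and lists were chosen with earlier results of these data known.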

Additional observations from a re-analysis of the deposited data

Results flagged for a closer look

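Among 37 measures over the 10 libraries, 5 had a library further from its nearest neighbour than Dixon's 95% limit for the range, which chance passes in about 1 in 20 groups. Replicate 10, a high-psbM library, had 60323158 total counts, beside a median of 44010088. Replicate 5, a low-psbM library, was the other one. It had 82791 normalized counts of 18S ribosomal RNA summed over both genes, beside a median of 21175, with 41188 for AT2G01010 and 41603 for AT3G41768, which are copies and not separate measurements. Its count of the long non-coding RNA gene AT1G07017 was 98.9, beside a median of 17.9.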

How the results depend on the processing

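No paired analysis was possible because the replicate numbers are shared only between the N-limiting and N-sufficient labels, whose files hold equal counts, and not between the psbM sets. Beside 0 genes called higher and 0 lower by edgeR, DESeq2's Wald test called 8 higher and 10 lower. With edgeR, keeping genes with at least 1 count called 1 higher (AT2G07793), and so did adding the plastid share of counts as a covariate (AT2G07793). A continuous fit on log2 psbM called 3 higher (AT2G07793, AT5G06565 and AT5G44286). Without each replicate in turn, 0 to 1 genes were called higher and 0 lower, and the 1 call, AT2G07793, came without replicate 1. Other scalings, a minimum average of 100 counts and removal of the length trend gave 0 in either direction. A 1.5-fold minimum could only give 0, since edgeR called 0 without it. The genes at an unadjusted p under 0.05 numbered 498 with the plastid share as a covariate, 2889 in the continuous fit, and 1021 to 4332 without each replicate in turn, lowest without replicate 1 and highest without replicate 4. These counts were also below 2056 divided by 1.5 without replicates 2 (1334), 3 (1116), 6 (1228) and 8 (1192), and above 1.5 times it without replicate 7 (3898). Of the named genes, SAG13 had log2 fold changes of -1.94 to 0.32 without each replicate in turn, and changed sign without replicate 3 (0.32). List medians that moved by more than the spread between libraries were those of the clock without replicate 10 (0.06), heat shock (-0.02) and phosphate starvation (-0.06) with the plastid covariate, iron genes under the 100-count minimum (-0.31) and carbon starvation with the length trend removed (-0.05). The cause was not tested. Low counts limit the snoRNA values, several of which rest on fewer than 30 raw reads a library on average.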
